A study of Mus musculus with 16 samples.

Results

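The genes described here are 10 markers of liver macrophages and of the monocytes that can replace them, taken as a fixed list of symbols from a table of 50559 gene symbols. Clec4f, Timd4, Vsig4, Cd5l and Marco are used as markers of Kupffer cells, the resident macrophages of the liver. Adgre1 (which encodes F4/80), Cd68 and Csf1r are expressed by macrophages more widely, and Ccr2 and Ly6c2 mark monocytes that arrive from the blood. All 10 symbols were found in the table, and all 10 passed the filter on low counts.

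Kupffer cells sit inside the liver sinusoids, where they take up particles, complement-coated microbes and aged blood cells. They keep themselves by local division and depend on signals through the CSF1 receptor. In diet-induced steatosis, monocytes that carry CCR2 follow the chemokine CCL2 into the liver, and some of them turn into macrophages that gradually gain Kupffer cell genes, with Clec4f gained before Timd4.

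Liver RNA from 16 male C57BL/6J mice was measured, with 4 libraries in each of 4 groups. The mice were 6 weeks old when they were placed on an LFD (called chow in the deposited labels) or an HFD for 10 weeks, and were treated for the final 4 of these. Mice labelled LFD or HFD were given a luciferase siRNA as control (10 mg/kg, repeated after 2 weeks) with methylcellulose as oral vehicle. Mice labelled HFD + siRNA had a Khk siRNA instead (20 mg/kg) with the same vehicle, whereas mice labelled HFD + Inhib had the luciferase siRNA and an oral small molecule inhibitor of the KHK enzyme (15 mg/kg). The siRNA carries a GalNAc group that directs it to hepatocytes, while the inhibitor is systemic. The paper reports that the inhibitor lowered KHK activity in liver and kidney, and that intestinal activity was not lowered. All mice had an injection of saline or insulin shortly before the liver was taken, and the labels do not say which mouse had which. The library totals ranged from 24317111 to 35820234 expected counts, with a median of 29570114. Whole liver was used, so that fewer cells of a type and less RNA per cell cannot be told apart in any value given here. Levels are scaled to the size of the library, so more RNA from other cells would also lower them. The paper reports a higher liver weight in HFD + Inhib, and its part in the values was not tested.

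Khk was examined first as a check of the labels. Its normalized CPM (expected counts scaled to a common library size, with TMM factors) was 266 ± 59.9 in LFD, 264 ± 39.8 in HFD, 12.7 ± 3.85 with the siRNA and 120 ± 24.1 with the inhibitor (mean ± SD, n = 4 in each, as for all groups below). The 4 HFD + siRNA libraries were at 11.8, 9.14, 18.1 and 11.5, far under every other library. Compared with HFD, the log2 fold change of Khk was -4.38 with siRNA (edgeR quasi-likelihood fit over all genes, Benjamini-Hochberg adjusted, as for every adjusted p here, adjusted p = 1.88e-08) and -1.14 with the inhibitor (adjusted p = 0.000752). The target was thus low in the libraries labelled as siRNA, and the inhibitor libraries were also lower in Khk mRNA.

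The liver macrophage genes differed widely in abundance. Per kilobase of the longest transcript, the mean normalized CPM over the 16 libraries was 34.2 for Cd5l, 30.9 for Clec4f, 11.8 for Csf1r, 11.6 for Vsig4, 5.66 for Adgre1, 5.38 for Cd68, 3.01 for Marco and 2.36 for Timd4. The monocyte genes were far lower, at 0.301 for Ccr2 and 0.148 for Ly6c2. Within this order Cd5l and Clec4f were neighbours whose group values overlapped, with 33.6 ± 8.21 and 33.7 ± 5.06 per kilobase in LFD. Csf1r and Vsig4, Adgre1 and Cd68, and Marco and Timd4 were also neighbours whose LFD means differed by less than the larger of their SDs. The defining markers of Kupffer cells were thus detected in all 16 libraries.

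In the comparison of the inhibitor with the siRNA, 5 of the 10 genes were lower and 0 higher in HFD + Inhib, where 16.6% of the 18335 genes tested were lower and 17.3% higher. They were Clec4f, Cd5l, Csf1r, Cd68 and Vsig4. Compared with HFD, 2 of the 10 genes were lower with the inhibitor (Clec4f and Cd5l) and 0 higher, with 8.42% of all genes lower and 9.8% higher. Compared with LFD, 3 were lower with the inhibitor (Clec4f, Csf1r and Cd5l) and 0 higher, with 18.2% of all genes lower and 18.8% higher. The median log2 fold change of the 10 genes was -0.35 against the siRNA group, -0.30 against HFD and -0.09 against LFD, while the median of all genes was -0.04, -0.00 and -0.02.

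The siRNA and the diet called fewer of them. In HFD + siRNA against HFD 0 of the 10 genes passed the threshold of edgeR, with 5.2% of all genes higher and 6.55% lower. At an unadjusted p under 0.05, Clec4f was higher (log2 fold change 0.29, adjusted p = 0.136) and Ccr2 lower (-0.76, adjusted p = 0.106). DESeq2 also called 0 of them, and a fit of these 2 groups alone called Ccr2. In HFD against LFD 1 gene was higher (Ccr2) and 0 lower, with 9.58% of all genes higher and 8.8% lower. In HFD + siRNA against LFD 1 gene was higher (Cd68) and 0 lower, with 4.75% of all genes higher and 3.88% lower. The median log2 fold change of the 10 genes was 0.21, 0.05 and 0.14 in these 3 comparisons. Comparisons with HFD all use the same 4 HFD libraries, as those with LFD, siRNA or inhibitor use the same libraries of those groups, so their values are not independent of each other.

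**Figure D1:**
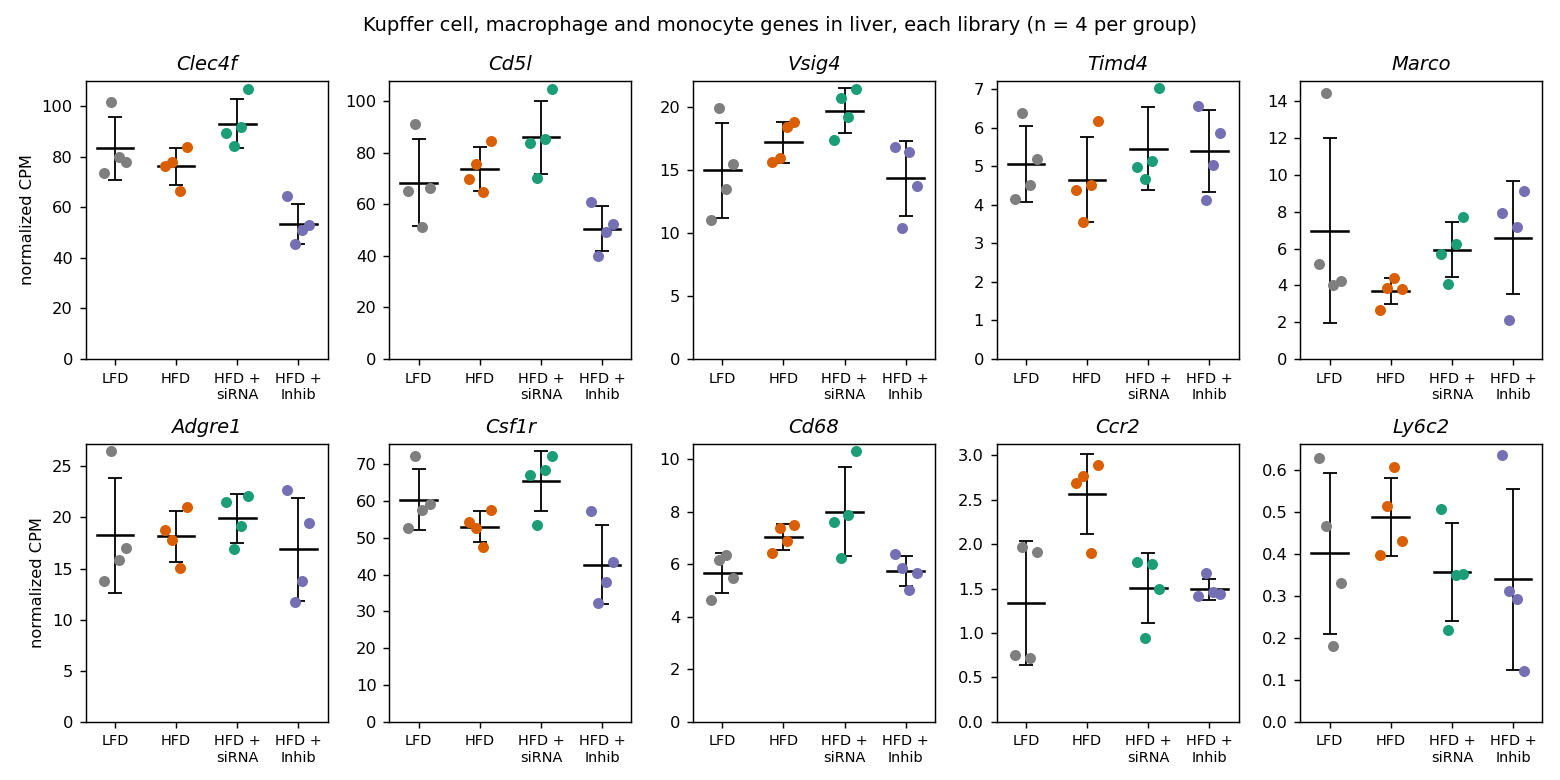
Normalized CPM of the 10 genes (vertical axes, each from 0) in each of the 16 libraries, by group (horizontal axes), with the mean as a bar and the SD as a whisker (n = 4). In Clec4f and Cd5l the 4 HFD + Inhib libraries lie under all HFD and HFD + siRNA libraries, in Timd4 and Adgre1 the groups overlap, and in Ccr2 the 4 HFD libraries lie at or above the others except 2 of LFD that exceed the lowest HFD library.

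Clec4f encodes a C-type lectin that in the mouse liver is made almost only by Kupffer cells. Its normalized CPM was 73.7, 102, 79.6 and 78.0 in LFD, 76.5, 77.9, 66.3 and 83.9 in HFD, 89.4, 84.1, 91.5 and 107 in HFD + siRNA, and 64.3, 45.5, 50.9 and 52.8 in HFD + Inhib. All 4 inhibitor libraries were under all 12 others, and the siRNA libraries were all above the HFD libraries, by as little as 84.1 against 83.9. Clec4f was 0.701-fold of HFD in the inhibitor group (log2 fold change -0.51 ± 0.12 SE, adjusted p = 0.00756) and 0.574-fold of the siRNA group (-0.80 ± 0.12, adjusted p = 0.000138). Against LFD it was lower by -0.64 ± 0.12 (adjusted p = 0.000747). These 3 calls of Clec4f were kept in all 18 alternatives that were run for each, with adjusted p-values of up to 0.0241. Its difference between HFD and LFD was -0.13 ± 0.12 (adjusted p = 0.498).

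Cd5l encodes a secreted protein of tissue macrophages that is induced by the nuclear receptor LXR. The normalized CPM of Cd5l was 65.0, 91.2, 51.0 and 66.4 in LFD, 69.6, 75.7, 64.9 and 84.7 in HFD, 83.8, 70.1, 85.1 and 105 in HFD + siRNA, and 60.8, 40.0, 49.1 and 52.2 in HFD + Inhib. The inhibitor libraries were under all HFD and siRNA libraries, but overlapped with LFD. Cd5l was 0.588-fold of the siRNA group (log2 fold change -0.77 ± 0.17, adjusted p = 0.00219), a call kept in all 18 alternatives. Against HFD the log2 fold change was -0.54 ± 0.17 (adjusted p = 0.0299). That call was lost without HFD replicate 2 or 4, or without inhibitor replicate 2, 3 or 4, with adjusted p-values of up to 0.0858. Against LFD it was -0.44 ± 0.17 (adjusted p = 0.0481), which 14 of 18 alternatives did not keep, among them those without LFD replicate 1, 2 or 4 or without inhibitor replicate 2, 3 or 4, with adjusted p-values of up to 0.176 when 1 library was left out. The replicate block (-0.43, adjusted p = 0.055) and the correction for GC content and length (-0.39, adjusted p = 0.119) also ended that call of Cd5l, and without both LFD replicate 2 and inhibitor replicate 2 it was -0.17 (adjusted p = 0.386).

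Vsig4 encodes CRIg, a complement receptor with which Kupffer cells capture bacteria. Libraries held Vsig4 at a normalized CPM of 11.03, 19.96, 13.5 and 15.5 in LFD, 15.6, 15.95, 18.4 and 18.8 in HFD, 17.4, 20.8, 19.3 and 21.5 in HFD + siRNA, and 16.9, 10.4, 16.5 and 13.8 in HFD + Inhib. The inhibitor libraries were under all siRNA libraries and overlapped with HFD. Vsig4 was 0.730-fold of the siRNA group (log2 fold change -0.45 ± 0.17, adjusted p = 0.0429), but this call was lost without siRNA replicate 2, 3 or 4 or inhibitor replicate 2 or 4 (adjusted p of up to 0.136), with the replicate block (0.0652) and with no filter on low counts (0.0604). Against HFD it was -0.26 ± 0.17 (adjusted p = 0.317).

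The sequence before the start of these 3 Kupffer cell genes is shown because all 3 were lower with the inhibitor than with the siRNA, Vsig4 in that comparison alone and not in all alternatives. Each line holds the 250 bases before the RefSeq start, 5′ to 3′ on the strand of the gene, from RefSeq on GRCm38.p6, which is not the build named for the deposited table (mm39). They are chr6:83656117-83656366 (minus strand) for Clec4f, chr3:87357631-87357880 (plus strand) for Cd5l and chrX:96293439-96293688 (minus strand) for Vsig4, and all are upstream of the transcript. Capitals mark matches on either strand to GAGGAA, letters of the kind that PU.1 (Spi1) binds, or TGGGAA, letters of the kind that RBPJ binds, and the motifs share no match here.
Clec4f: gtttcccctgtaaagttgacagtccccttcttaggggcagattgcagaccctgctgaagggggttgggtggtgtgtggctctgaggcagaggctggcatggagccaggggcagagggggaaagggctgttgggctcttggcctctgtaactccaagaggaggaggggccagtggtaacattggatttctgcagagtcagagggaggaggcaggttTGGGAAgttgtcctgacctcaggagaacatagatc
Cd5l: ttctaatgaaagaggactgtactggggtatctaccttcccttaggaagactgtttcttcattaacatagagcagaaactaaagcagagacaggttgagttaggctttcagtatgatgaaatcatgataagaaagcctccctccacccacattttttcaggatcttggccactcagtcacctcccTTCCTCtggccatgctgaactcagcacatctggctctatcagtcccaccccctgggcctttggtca
Vsig4: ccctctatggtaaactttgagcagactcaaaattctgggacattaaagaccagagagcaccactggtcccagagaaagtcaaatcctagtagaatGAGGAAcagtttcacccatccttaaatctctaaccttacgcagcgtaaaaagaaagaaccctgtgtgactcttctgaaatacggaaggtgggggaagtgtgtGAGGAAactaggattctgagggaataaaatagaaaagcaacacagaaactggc
Clec4f held 1 match to TGGGAA, which began 35 bases before the start, and none to GAGGAA. Cd5l held 1 match to GAGGAA on the opposite strand, and Vsig4 held 2 on its own strand. Among the genes not shown, Marco, which was not called, and Cd68, also lower than with the siRNA, each held 1 match to each motif. Ly6c2 held both motifs too, and Timd4 and Ccr2 held none. Over 32851 mouse promoters of the same length, 23.3% held GAGGAA and 21.6% TGGGAA on either strand, so that such matches are common. They describe the letters and show no binding.

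Timd4 encodes TIM-4, a receptor for phosphatidylserine on dying cells that long-resident Kupffer cells carry. For Timd4 the normalized CPM was 4.15, 6.38, 4.51 and 5.17 in LFD, 4.37, 3.54, 4.51 and 6.18 in HFD, 4.97, 4.66, 5.13 and 7.03 in HFD + siRNA, and 6.57, 4.12, 5.02 and 5.85 in HFD + Inhib. All 4 groups overlapped. The log2 fold change with the inhibitor was 0.22 against HFD (95% interval -0.20 to 0.64, adjusted p = 0.494) and -0.02 against the siRNA group (-0.43 to 0.40, adjusted p = 0.958), and Timd4 passed no test in the 6 comparisons. The interval against the siRNA group did not reach the -0.80 of Clec4f, though the difference between the genes was not tested.

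Marco, a class A scavenger receptor, varied most between libraries of 1 group. Values of Marco were, in normalized CPM, 5.16, 14.5, 4.00 and 4.22 in LFD, 2.68, 3.85, 4.40 and 3.83 in HFD, 5.73, 4.08, 6.24 and 7.71 in HFD + siRNA, and 7.95, 2.14, 7.19 and 9.11 in HFD + Inhib. LFD replicate 2 stood far above its group, and inhibitor replicate 2 was the lowest of all 16. With all libraries Marco passed no test (inhibitor against HFD 0.84 ± 0.42, adjusted p = 0.186). Without 1 library the log2 fold change of Marco against HFD ranged from 0.65 (adjusted p = 0.386, without inhibitor replicate 4) to 1.13 (adjusted p = 0.0497, without inhibitor replicate 2).

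Of the broader macrophage genes, Adgre1 passed no test. Its normalized CPM was 13.8, 26.5, 15.8 and 17.0 in LFD, 18.8, 17.8, 15.1 and 21.03 in HFD, 21.5, 16.9, 19.2 and 22.1 in HFD + siRNA, and 22.6, 11.7, 13.8 and 19.4 in HFD + Inhib. The 4 groups overlapped, and the inhibitor group spanned most of the range of the others. The log2 fold change with the inhibitor was -0.10 against HFD (95% interval -0.54 to 0.34, adjusted p = 0.783) and -0.24 against the siRNA group (-0.68 to 0.20, adjusted p = 0.396). Without inhibitor replicate 2 the former was 0.03.

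Csf1r encodes the receptor for CSF1 and IL-34, on which macrophage survival depends. Csf1r reached a normalized CPM of 52.7, 72.1, 57.6 and 59.3 in LFD, 54.2, 52.7, 47.5 and 57.5 in HFD, 67.2, 53.5, 68.5 and 72.2 in HFD + siRNA, and 57.2, 32.4, 37.8 and 43.5 in HFD + Inhib. In the inhibitor group 3 libraries were under all others, and replicate 1 was within their range. Csf1r was 0.654-fold of the siRNA group (log2 fold change -0.61 ± 0.15, adjusted p = 0.00479) and 0.707-fold of LFD (-0.50 ± 0.15, adjusted p = 0.015). Against HFD it was -0.31 ± 0.15 (adjusted p = 0.166), and without 1 library it ranged from -0.49 (adjusted p = 0.0185, without inhibitor replicate 1) to -0.20 (adjusted p = 0.367, without inhibitor replicate 2). The correction for GC content and length gave -0.19 (adjusted p = 0.416) for Csf1r against HFD. The same correction ended both calls of Csf1r (-0.40, adjusted p = 0.0586, and -0.26, adjusted p = 0.216). Of its words of 50 bases, 14.3% lie opposite to Hmgxb3, and the counting strand is not given in the sources used here.

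Cd68 encodes a lysosomal membrane protein of phagocytes. Its normalized CPM was 4.65, 6.16, 6.36 and 5.47 in LFD, 6.43, 7.37, 6.90 and 7.51 in HFD, 7.62, 6.23, 7.88 and 10.3 in HFD + siRNA, and 6.40, 5.87, 5.02 and 5.67 in HFD + Inhib. The HFD libraries were all above the LFD and inhibitor libraries, with 6.43 against 6.36 and 6.40 at the edge, and the siRNA group overlapped with all. Cd68 was lower with the inhibitor than with the siRNA (log2 fold change -0.48 ± 0.14, adjusted p = 0.0166), a call lost without siRNA replicate 4 or inhibitor replicate 3 (adjusted p of up to 0.0873) and under the correction for GC content and length (-0.32, adjusted p = 0.0943). It was higher in HFD + siRNA than in LFD (0.50 ± 0.14, adjusted p = 0.0412), a call kept in 6 of 18 alternatives. That call was lost in 7 of 8 fits without 1 library, those without LFD replicate 1, 2, 3 or 4 or siRNA replicate 1, 3 or 4 (adjusted p of up to 0.166). The replicate block, alone or with the correction for GC content and length, also ended it. So did no filter on low counts, a fit of the 2 groups alone, and leaving out LFD replicate 2 and inhibitor replicate 2 together. Between HFD and LFD the log2 fold change was 0.31 ± 0.15 (adjusted p = 0.144), and the correction for GC content and length gave 0.46 (adjusted p = 0.0342).

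**Figure D2:**
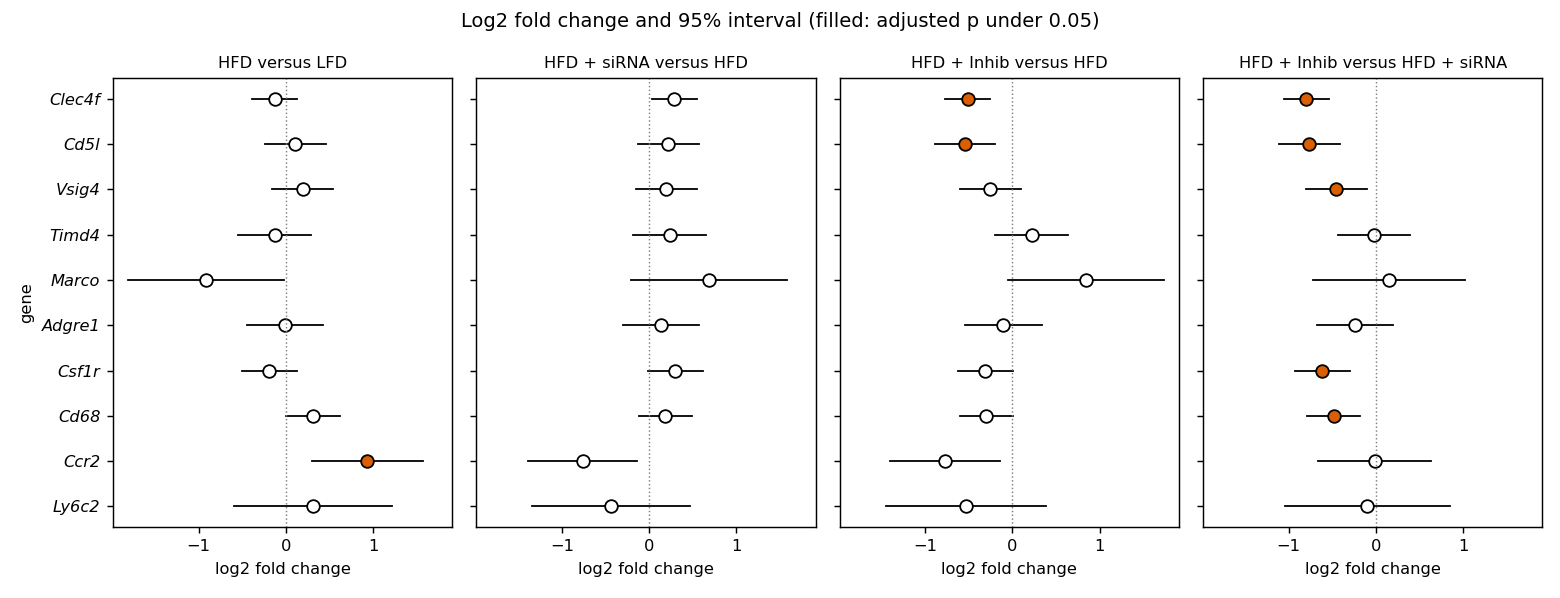
Log2 fold change (horizontal axes) of each gene with its 95% interval in 4 comparisons, filled where the adjusted p was under 0.05. The filled points are Ccr2 for HFD versus LFD, none for HFD + siRNA versus HFD, Clec4f and Cd5l for HFD + Inhib versus HFD, and Clec4f, Cd5l, Vsig4, Csf1r and Cd68 for HFD + Inhib versus HFD + siRNA.

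Ccr2 encodes the receptor for CCL2 by which monocytes leave the bone marrow and enter tissue. Its normalized CPM was 0.755, 1.97, 0.717 and 1.91 in LFD, 2.68, 2.77, 1.90 and 2.89 in HFD, 1.80, 0.947, 1.78 and 1.49 in HFD + siRNA, and 1.41, 1.67, 1.46 and 1.44 in HFD + Inhib. The HFD libraries were all above the siRNA and inhibitor libraries, and HFD replicate 3 fell among the LFD libraries, which split into a higher and a lower pair. Its counts were low, from 18 to 108 per library. Ccr2 was 1.91-fold higher in HFD than in LFD (log2 fold change 0.93 ± 0.30, adjusted p = 0.0403). That call was lost without LFD replicate 1 or 3 or HFD replicate 1, 2 or 4 (adjusted p of up to 0.115), in a fit of the 2 groups alone (adjusted p = 0.0931) and under the correction for GC content and length (0.67, adjusted p = 0.127).

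Against HFD the log2 fold change of Ccr2 was -0.76 ± 0.30 with the siRNA (adjusted p = 0.106) and -0.78 ± 0.30 with the inhibitor (adjusted p = 0.0814). Neither passed the threshold of the test over all genes. A fit of the 2 groups alone gave adjusted p-values of 0.0441 and 0.0112, DESeq2 gave 0.0567 for the siRNA and 0.0492 for the inhibitor. The correction for GC content and length gave -0.41 (adjusted p = 0.409) for the siRNA and -0.89 (adjusted p = 0.0356) for the inhibitor, and with the replicate block -0.38 (adjusted p = 0.476) and -0.87 (adjusted p = 0.052). The treatments themselves differed by -0.02 (95% interval -0.66 to 0.63, adjusted p = 0.974), an interval that runs from 0.633-fold to 1.55-fold. That difference of Ccr2 was -0.48 (adjusted p = 0.24) under the correction for GC content and length in HFD + Inhib versus HFD + siRNA, so its size depended on that choice.

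Ly6c2 encodes an antigen of inflammatory monocytes. Normalized CPM values of Ly6c2 were 0.629, 0.466, 0.179 and 0.330 in LFD, 0.398, 0.514, 0.607 and 0.430 in HFD, 0.506, 0.218, 0.349 and 0.352 in HFD + siRNA, and 0.636, 0.311, 0.291 and 0.120 in HFD + Inhib. All groups overlapped, and the counts were 4 to 19.8 per library, so that only large differences could have been detected at this depth. The log2 fold change with the inhibitor against HFD was -0.53 with a 95% interval of -1.45 to 0.38 (adjusted p = 0.442). Of its words of 50 bases, 13.9% are shared with Ly6c1, and RSEM divides reads that fit both. Ly6c1, which endothelial cells also express, fell with the inhibitor, from 0.398, 0.231, 0.190 and 0.235 normalized CPM in HFD to 0.141, 0, 0.0324 and 0.120 (log2 fold change -1.75 ± 0.58, adjusted p = 0.0456), at counts of 0 to 12.5 in these libraries.

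Ratios to the broader macrophage genes were taken within each library. Counts of Clec4f per count of Adgre1 in the same library were 5.36, 3.84, 5.03 and 4.58 in LFD, 4.07, 4.38, 4.40 and 3.99 in HFD, 4.15, 4.98, 4.77 and 4.83 in HFD + siRNA, and 2.84, 3.89, 3.70 and 2.72 in HFD + Inhib. The inhibitor libraries were under all HFD and siRNA libraries and overlapped with LFD. With Csf1r in place of Adgre1 the groups overlapped, at 1.13 to 1.41 with the inhibitor and 1.395 to 1.48 in HFD, so that the separation depended on which macrophage gene was the denominator. Cd5l per Adgre1 was likewise lower, at 2.69, 3.42, 3.57 and 2.69 with the inhibitor against 3.71 to 4.31 in HFD and 3.89 to 4.73 in HFD + siRNA, and overlapped with LFD (3.22 to 4.73). Cd5l per Csf1r overlapped, at 1.06 to 1.30 with the inhibitor and 1.28 to 1.47 in HFD. Per Cd68 both genes overlapped with HFD, Clec4f at 7.75 to 10.1 with the inhibitor and 9.60 to 11.9 in HFD, and Cd5l at 6.82 to 9.78 and 9.41 to 11.3. The inhibitor libraries were under all HFD + siRNA libraries per Cd68, which were at 10.4 to 13.5 for Clec4f and 10.1 to 11.3 for Cd5l. Clec4f per Cd68 was also under all LFD libraries (12.5 to 16.5), while Cd5l per Cd68 overlapped with LFD (8.02 to 14.8). Vsig4 per Adgre1 overlapped in all groups, at 0.962 ± 0.176 in HFD and 0.885 ± 0.223 with the inhibitor. Timd4 per Adgre1 overlapped, at 0.290 to 0.365 with the inhibitor, 0.199 to 0.300 in HFD, 0.231 to 0.318 in HFD + siRNA and 0.241 to 0.304 in LFD. Timd4 per Cd68 also overlapped, at 0.702 to 1.03 with the inhibitor and 0.481 to 0.823 in HFD. With Csf1r as the denominator, itself lower with the inhibitor than with the siRNA, Timd4 was at 0.115 to 0.134 with the inhibitor, above all libraries of HFD (0.0673 to 0.107), HFD + siRNA (0.0739 to 0.0974) and LFD (0.0784 to 0.0884). These ratios were computed after the levels were known and are given with no test.

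**Figure D3:**
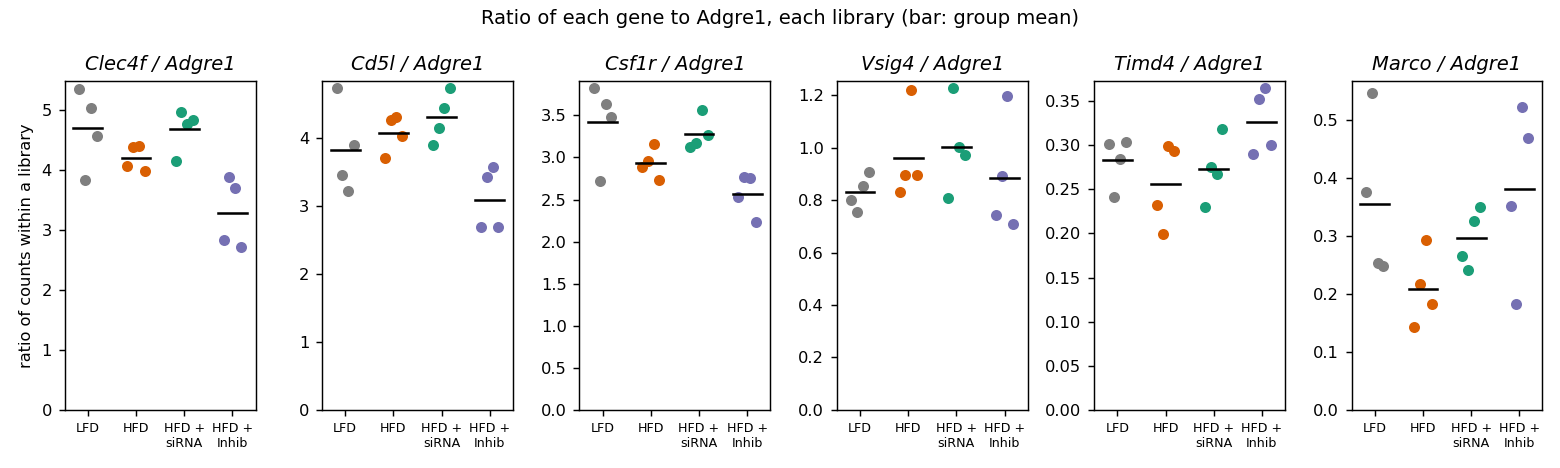
Ratio of the counts of 6 genes to those of Adgre1 within each library (vertical axes, each from 0), by group (horizontal axes), with the group mean as a bar. Clec4f and Cd5l per Adgre1 are lower in the 4 HFD + Inhib libraries than in all HFD and HFD + siRNA libraries, and Timd4 and Marco per Adgre1 are not.

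Some libraries stood apart across the genes. LFD replicate 2 was the highest of its group in 8 of the 10 genes, HFD replicate 4 and siRNA replicate 4 also in 8, and inhibitor replicate 1 in 8. Inhibitor replicate 2 was the lowest of its group in 7 and siRNA replicate 2 in 9. Leaving out LFD replicate 2 and inhibitor replicate 2 together, an alternative added after the values were seen, left 4 of the 5 genes called against the siRNA group (Vsig4 was lost), both called against HFD, with Marco also higher, and Clec4f alone of the 3 called against LFD, with Marco also higher. It also called Marco in HFD + siRNA against HFD and Vsig4 in place of Cd68 in HFD + siRNA against LFD.

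The genes whose pattern over the 16 libraries was most like that of Clec4f were Adgre5 (Pearson r = 0.963 of log2 CPM), Csf1r (0.945), Lgmn (0.929), Slc7a8 (0.923) and Myo1f (0.921), among 12408 genes compared. Adgre5, which encodes the leukocyte adhesion receptor CD97, had a log2 fold change with the inhibitor of -0.47 against HFD and -0.66 against HFD + siRNA. The genes most like Ccr2 were Soat1 (0.941), Ifi209 (0.893), Clec7a (0.888), St8sia4 (0.884) and Rab23 (0.878), among 12409 genes. Clec7a, which encodes the beta-glucan receptor Dectin-1, had a log2 fold change of 1.32 in HFD against LFD and -1.21 with the inhibitor against HFD. These genes were chosen for their likeness over the same libraries, which share groups and depth, so that neither the correlations nor the fold changes carry a test.

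Other genes of the same cells were taken from lists of markers, whose counts are to be read against the shares of all genes. These were 16.6% lower and 17.3% higher with the inhibitor than with the siRNA, 8.42% lower and 9.8% higher than in HFD, 6.55% lower and 5.2% higher with the siRNA than in HFD, and 8.8% lower and 9.58% higher in HFD than in LFD. The alternatives were read out for the 10 genes only, so the calls of genes from these lists, here and below, are from the main fit alone. They carry no correction for GC content, which tracked the log2 fold change of the inhibitor against the siRNA (Spearman -0.53). Of 18 further Kupffer cell genes, 9 were lower and 0 higher with the inhibitor than with the siRNA, and 5 were lower and 0 higher than in HFD. The medians were -0.33 and -0.27, against -0.04 and -0.00 for all genes. Fcna, which encodes ficolin-A, a lectin of the complement system, fell to 18.6 ± 2.22 normalized CPM with the inhibitor from 25.7 ± 4.43 in HFD and 34.7 ± 5.96 in HFD + siRNA (adjusted p = 0.0383 and 0.000269). Sdc3, a syndecan, was lower in both (-0.42, adjusted p = 0.0446, and -0.69, adjusted p = 0.00124). Id3, a transcription factor that Kupffer cells need, was higher with the siRNA than in HFD (1.14 ± 0.34, adjusted p = 0.0391), the only gene of this list called there. Nr1h3, which encodes LXRα, was lower with the inhibitor than with the siRNA (-0.41, adjusted p = 0.0129) but not called against HFD (-0.11, adjusted p = 0.58). Hpgd, a prostaglandin-degrading enzyme, was higher in HFD than in LFD (1.12, adjusted p = 0.00103). In that comparison 1 of the 18 genes was higher and 1 lower, where 9.58% of all genes were higher and 8.8% lower. Only 6 of the 18 had a log2 fold change above 0, and the median of the 18 was -0.04, against -0.01 for all genes.

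Of 12 genes of complement C1q and phagocytic receptors, 6 were lower and 0 higher with the inhibitor than with the siRNA, where 16.6% of all genes were lower. Against HFD 1 of the 12 was lower, a share near the 8.42% of all genes. C1qa, which encodes a chain of C1q, was at 25.98, 26.6, 23.8 and 28.9 normalized CPM in HFD, 30.8, 23.3, 37.0 and 38.9 in HFD + siRNA, and 24.6, 21.1, 20.04 and 22.2 with the inhibitor. The inhibitor libraries overlapped with both groups. C1qa was lower than in the siRNA group (-0.56 ± 0.13, adjusted p = 0.00401) and C1qb likewise (-0.73, adjusted p = 0.00128), while C1qa was not called against HFD (-0.26, adjusted p = 0.202). Axl, a receptor for dying cells, was lower in both comparisons (-0.45, adjusted p = 0.018, and -0.60, adjusted p = 0.00163). Stab1, a scavenger receptor that endothelial cells also express, was lower than with the siRNA (-0.39, adjusted p = 0.0184). Of 16 genes of macrophages and other myeloid cells, 7 were lower and 0 higher with the inhibitor than with the siRNA (16.6% of all genes lower) and 4 were lower than in HFD (8.42%). Among these, Laptm5, a lysosomal protein of blood cells, was lower against HFD (-0.63 ± 0.13, adjusted p = 0.00379), as were Itgb2, the integrin chain CD18 (-0.55, adjusted p = 0.0308), and Coro1a, an actin regulator of leukocytes (-1.17, adjusted p = 0.0189).

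Of the regulators of these cells, Spi1 encodes PU.1, the transcription factor that all macrophages depend on. It was at 3.61, 3.93, 2.88 and 4.07 normalized CPM in HFD, 4.21, 2.84, 3.91 and 5.10 in HFD + siRNA, and 3.11, 1.94, 1.72 and 1.77 with the inhibitor. In the inhibitor group 3 libraries were under all the others, and replicate 1 was above the lowest of both. Spi1 was lower with the inhibitor than in HFD (-0.77 ± 0.21, adjusted p = 0.016) and than with the siRNA (-0.92 ± 0.21, adjusted p = 0.00289). Irf5, an interferon regulatory factor of inflammatory macrophages, was higher with the siRNA than in HFD (0.76, adjusted p = 0.027) and lower with the inhibitor (-1.16, adjusted p = 0.00144). Csf1, a ligand of Csf1r, was also lower with the inhibitor than in HFD (-0.40 ± 0.11, adjusted p = 0.0192) and than with the siRNA (-0.42, adjusted p = 0.00803), and Il34, the other ligand, passed no test (-0.40 ± 0.23 against HFD, adjusted p = 0.247). Over the 14 tested genes of this list, 6 were lower and 3 higher with the inhibitor than with the siRNA, 3 lower and 1 higher than in HFD, and 2 higher and 2 lower with the siRNA than in HFD. The shares of all genes were 16.6% lower and 17.3% higher, 8.42% lower and 9.8% higher, and 5.2% higher and 6.55% lower. Both counts of higher genes with the inhibitor were near these shares. Of 9 signals of the Kupffer cell niche, 4 were lower and 0 higher with the inhibitor than with the siRNA and 3 lower than in HFD (16.6% and 8.42% of all genes lower), among them Notch2 (-0.47, adjusted p = 0.00307), Dll1, a Notch ligand (-1.10, adjusted p = 0.00185), and Gdf2, which encodes BMP9 (-0.52, adjusted p = 0.00874).

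Ligands that draw monocytes were examined beside their receptor. Ccl2, the ligand of Ccr2, was at 0.335, 0.573, 0.209 and 0.264 normalized CPM in LFD, 0.762, 0.950, 0.569 and 0.938 in HFD, 0.475, 0.218, 0.384 and 0.469 in HFD + siRNA, and 0.212, 0.0389, 0.227 and 0.150 in HFD + Inhib. The HFD libraries were above all siRNA and inhibitor libraries, and HFD replicate 3 was just under the highest LFD library. Ccl2 was higher in HFD than in LFD (1.23 ± 0.37, adjusted p = 0.0305) and lower with the inhibitor than in HFD (-2.31 ± 0.41, adjusted p = 0.000907), and with the siRNA the log2 fold change was -1.04 ± 0.36 (adjusted p = 0.0731). Cxcl10, an interferon-induced chemokine for T cells and monocytes, was higher in HFD than in LFD (1.60 ± 0.24, adjusted p = 0.000532) and lower than HFD with the siRNA (-1.17 ± 0.23, adjusted p = 0.00519) and with the inhibitor (-1.87 ± 0.24, adjusted p = 5.52e-05). Ccl9, a chemokine of myeloid cells, was lower with the siRNA than in HFD (-0.71, adjusted p = 0.00348) and not called with the inhibitor (0.28, adjusted p = 0.161). Of the 14 genes of this list 8 could be tested, and 5 were lower and 0 higher with the inhibitor than in HFD, 2 were lower and 0 higher with the siRNA, and 3 were higher and 1 lower in HFD than in LFD. The shares of all genes were 8.42% lower with the inhibitor, 6.55% lower with the siRNA and 9.58% higher in HFD.

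**Figure D4:**
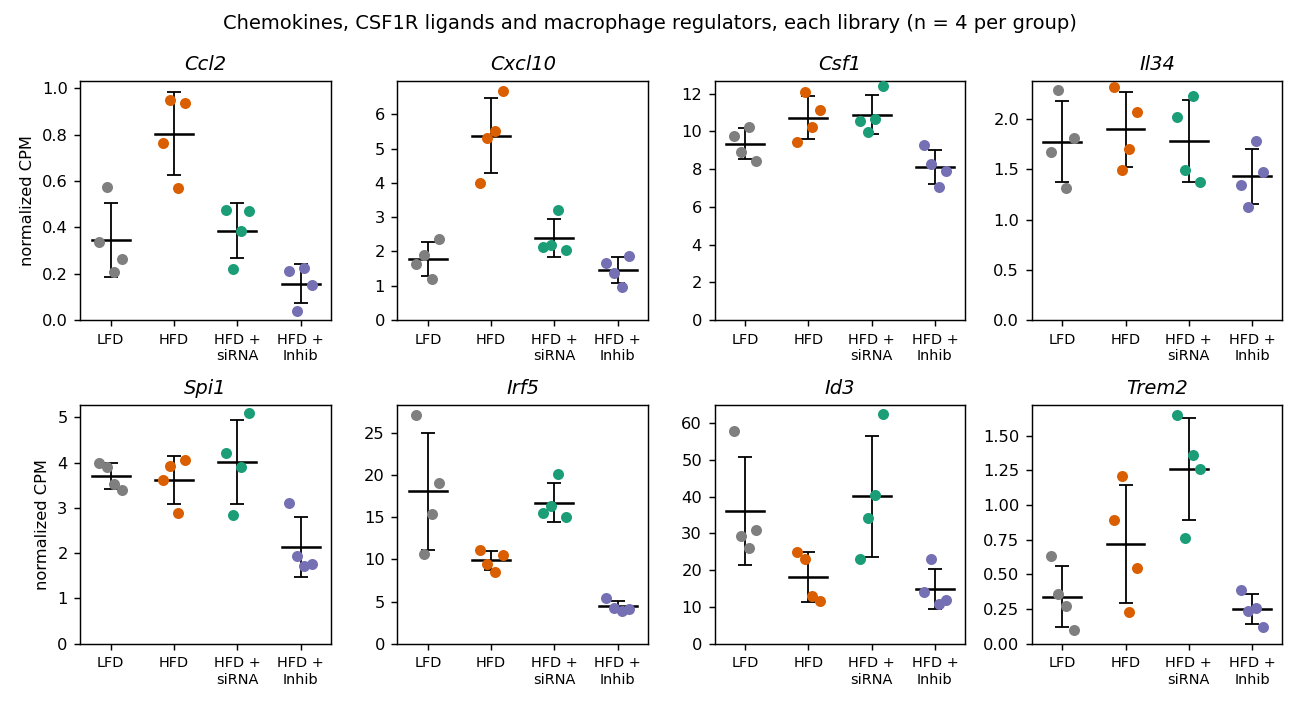
Normalized CPM (vertical axes, each from 0) of chemokines, CSF1R ligands and regulators of macrophages in each of the 16 libraries, by group (horizontal axes), with the mean as a bar and the SD as a whisker (n = 4). The HFD libraries of Ccl2 and Cxcl10 lie above all siRNA and inhibitor libraries, while in Spi1 and Irf5 the inhibitor group has the lowest mean.

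Of 13 further monocyte genes that could be tested out of 15, 6 were lower and 0 higher with the inhibitor than in HFD (median -0.80), where 8.42% of all genes were lower, and 0 were called with the siRNA (median -0.34). In HFD against LFD 1 was higher, a share near the 9.58% of all genes. Plac8 was lower with the inhibitor than in HFD (-0.80, adjusted p = 0.0064), and Nr4a1, a nuclear receptor of patrolling monocytes and an early response gene, was lower than with the siRNA (-2.08, adjusted p = 0.00786), with the groups apart. Of 12 genes of lipid-associated macrophages, which surround dying fat-laden hepatocytes, 3 were lower and 5 higher with the inhibitor than in HFD, where 8.42% of all genes were lower and 9.8% higher. In HFD against LFD 5 of the 12 were higher and 2 lower, with 9.58% of all genes higher and 8.8% lower. With the siRNA against HFD 1 was lower and 0 higher, a share near the 6.55% of all genes lower. Mmp12, a macrophage elastase, was at 2.62, 3.90, 2.88 and 2.81 normalized CPM in HFD and at most 0.698 in the other 3 groups. It was higher in HFD than in LFD (4.11 ± 0.32, adjusted p = 2.88e-06) and lower than HFD with the siRNA (-2.52 ± 0.27, adjusted p = 8.25e-05) and the inhibitor (-3.42 ± 0.30, adjusted p = 1.15e-06). Trem2, a lipid receptor of these macrophages, was lower with the inhibitor than in HFD (-1.56 ± 0.52, adjusted p = 0.0468) and not called with the siRNA (0.77 ± 0.44, adjusted p = 0.285). It was low and the groups overlapped, at 0.895, 1.21, 0.228 and 0.547 normalized CPM in HFD and 0.389, 0.233, 0.259 and 0.120 with the inhibitor. The members that were higher with the inhibitor included Cd36 (2.03, adjusted p = 7.36e-06) and Lpl (3.17, adjusted p = 3.44e-06), which hepatocytes can also express and which serve lipid uptake. Of 7 tested inflammatory genes, 1 was higher and 1 lower with the inhibitor than in HFD, and Il1rn, the interleukin-1 receptor antagonist, was the higher (2.57, adjusted p = 5.89e-05).

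**Figure D5:**
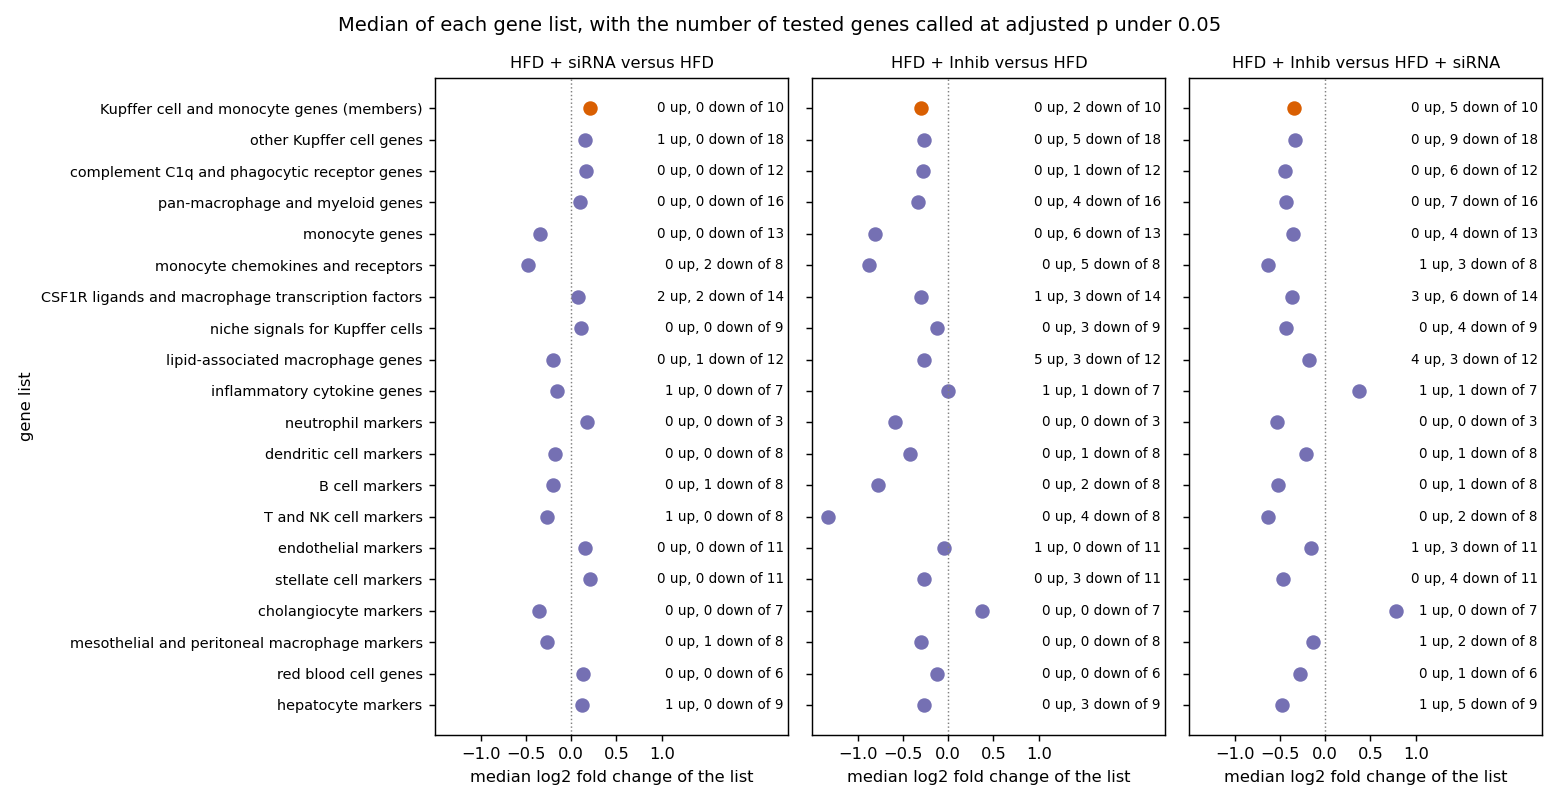
Median log2 fold change (horizontal axes) of each gene list except the adipocyte markers in 3 comparisons. The number of tested genes called higher (up) or lower (down) stands beside each list. The adipocyte markers, not drawn, had medians of -0.04 for the siRNA and 3.30 for the inhibitor against HFD, and 3.34 for the inhibitor against the siRNA. The 10 genes described here (top, orange) have medians of 0.21, -0.30 and -0.35, and most lists, of myeloid genes and of other cell types, lie left of 0 in both comparisons of the inhibitor.

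Markers of other cell types also moved with the inhibitor, and their part in the results above was not tested. Of 9 hepatocyte markers tested, 3 were lower and 0 higher than in HFD and 5 were lower and 1 higher than in HFD + siRNA, where 8.42% and 16.6% of all genes were lower. Their summed normalized CPM was 93663, 76058, 90939 and 92409 in HFD, 95840, 98465, 92425 and 85001 in HFD + siRNA, and 61784, 61375, 65254 and 64043 with the inhibitor, and Alb, the most abundant, was lower than in HFD (-0.77, adjusted p = 0.000761), as was Ttr (-0.93, adjusted p = 5.55e-05). Of 11 stellate cell markers, 3 were lower and 0 higher than in HFD and 4 were lower and 0 higher than in HFD + siRNA, with sums of 677, 585, 559 and 592 in HFD, 662, 650, 684 and 657 in HFD + siRNA and 497, 516, 467 and 435 with the inhibitor, and Reln was the most abundant (-0.66, adjusted p = 0.000251). Of 11 endothelial markers, 0 were lower and 1 higher than in HFD and 3 were lower and 1 higher than in HFD + siRNA, with sums of 447, 407, 415 and 463 in HFD, 410, 518, 502 and 525 in HFD + siRNA and 410, 436, 418 and 405 with the inhibitor, Stab2 being the most abundant. Lyve1 was the gene that was higher than in HFD (0.86, adjusted p = 0.031).

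Lymphocyte markers were low throughout. Of 8 tested T and NK cell markers (of 12), 4 were lower and 0 higher with the inhibitor than in HFD (8.42% of all genes lower) and 1 was higher with the siRNA (5.2% higher), with sums of 4.90, 11.4, 3.26 and 6.14 in HFD, 5.06, 6.92, 7.33 and 7.68 in HFD + siRNA and 3.29, 2.21, 1.85 and 1.77 with the inhibitor. The most abundant was Cd4, which some myeloid cells also express, and it was higher with the siRNA than in HFD (1.62, adjusted p = 0.00202) and lower with the inhibitor (-1.98, adjusted p = 0.000538). Of 8 B cell markers 2 were lower and 0 higher with the inhibitor, with sums of 12.8, 33.6, 14.7 and 14.3 in HFD and 7.03, 8.005, 16.9 and 9.26 with the inhibitor, and Ighm was the most abundant. Of 3 tested neutrophil markers (of 9) and 8 dendritic cell markers (of 9), 0 and 1 were lower with the inhibitor, the latter Siglech (-1.54, adjusted p = 0.00211), a share of the 8 near the 8.42% of all genes. Gata6, a factor of peritoneal macrophages that mesothelial cells also express, passed no test (-0.21 against HFD, adjusted p = 0.593), and of the 8 tested genes of its list 0 were called there. No list had a member at 0 in all libraries, but Ly6g, a defining marker of neutrophils, held 1 count over the 16 libraries. Of 3 tested adipocyte markers (of 7) all 3 were higher with the inhibitor than in HFD, among them Fabp4 (3.30). Adipoq, Plin1, Lep and Retn were too low to be tested, with 42, 33, 21 and 17 counts over the 16 libraries. Whether adipocytes were the source of the 3 was not tested. Of 7 cholangiocyte markers and 6 red blood cell genes 0 were called.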

How the data were processed

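Liver RNA was measured in 16 libraries, 4 in each of 4 groups. The authors deposited 1 table of RSEM expected counts per gene symbol, and the submitters' processing notes name STAR, RSEM and mm39, without versions used here. The study's methods name a targeted assay (HTG EdgeSeq), which was not reconciled with a table of this kind. Of all deposited expected counts, zeros included, 15.1% were not whole, and all were rounded. Library totals were 24317111 to 35820234. Genes were kept by filterByExpr (minimum count 10, minimum total 15), which left 18335 of 50559. TMM scaling and quasi-likelihood tests were run in edgeR 4.0.16 (limma 3.58.1, R 4.3.3) on 1 fit of 16 libraries with 6 comparisons, p-values were adjusted over all tested genes, and the threshold was 0.05. DESeq2 1.42.0, other scalings and filters, a fit of 2 groups, a replicate block, a correction for GC content and length, and leaving out libraries were alternatives. Scripts were tested on simulated data. The 10 genes, all named, and the marker lists were chosen with earlier results of these data known. Of each further list, the up to 3 genes with the lowest adjusted p in any comparison were named, with Ccl2, Csf1, Il34, Spi1, Nr1h3, Id3, C1qa, Ly6c1, Gata6 and Trem2 whatever their values, and the 5 genes most correlated with Clec4f and with Ccr2. Tested genes with a known GC content and length were 86.5%. The p-values set a difference between groups against the spread between libraries within groups, with 1 estimate of that spread shared by the 4 groups.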

Additional observations from a re-analysis of the deposited data

Results flagged for a closer look

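Of 40 sets of 4 libraries examined (10 genes in 4 groups), 2 had a library far from the others by Dixon's criterion, which chance alone meets in about 1 in 20 sets. Marco in LFD replicate 2 was at 14.5 normalized CPM, with the next library at 5.16 (gap over range 0.890). Ccr2 in HFD + Inhib replicate 2 was at 1.67 normalized CPM, with the next at 1.46 (gap over range 0.831), although the 4 libraries spanned a narrow range.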

How the results depend on the processing

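Of 1073 values recomputed for single genes, 951 kept their direction and side of the threshold, 56 lost it, 12 gained it and 54 changed sign, none of the last among the 12 called results. The 3 calls of Clec4f with the inhibitor and the call of Cd5l against the siRNA group held in all 18 alternatives each. For the other 8 the cause of a change was not tested. The number of genes called fell from 1 to 0 in HFD versus LFD in a fit of 2 groups and at an adjusted p under 0.01, and was 0 to 1 without 1 library. It rose from 0 to 1 in HFD + siRNA versus HFD in a fit of 2 groups and without LFD replicate 2 and HFD + Inhib replicate 2. In HFD + Inhib versus HFD it fell from 2 to 1 at 0.01 and was 1 to 3 without 1 library. In HFD + Inhib versus HFD + siRNA it fell from 5 to 3 at 0.01 and under the GC and length correction with or without the replicate block, and was 3 to 5 without 1 library. In HFD + siRNA versus LFD it fell from 1 to 0 with no filter, in a fit of 2 groups, at 0.01, and with the replicate block, alone or with the GC and length correction, and was 0 to 1 without 1 library. In HFD + Inhib versus LFD it fell from 3 to 1 at 0.01 and under the GC and length correction with or without the block. The replicate block gave 4 calls in HFD + Inhib versus HFD + siRNA (Vsig4 lost), 2 in HFD + Inhib versus LFD (Cd5l lost) and 0 in HFD + siRNA versus LFD (Cd68 lost), and changed no other call. The numbers share no stated origin, and 6 of 24 same-numbered pairs deviated together with r over 0.1 (r from -0.13 to 0.34), with 9 of 16 libraries closest to their own number. GC content tracked the log2 fold change across 8232 genes (Spearman -0.52 for HFD against LFD, 0.49 for the siRNA and -0.28 for the inhibitor against HFD, -0.53 for the inhibitor against the siRNA, and -0.083 for the siRNA and -0.56 for the inhibitor against LFD). Signs changed as follows. HFD versus LFD of Adgre1 was 0.0059 with upper-quartile scaling, 0.0012 with no filter, 0.0062 with 10 counts in every library and 0.22 without the 2 libraries, and of Timd4 0.0065 without them. Cd68 in HFD + siRNA versus HFD was -0.021 under the GC and length correction and -0.027 with the block. Without the 2 libraries, HFD + Inhib versus HFD was 0.029 for Adgre1, HFD + Inhib versus HFD + siRNA 0.10 for Timd4, HFD + siRNA versus LFD 0.40 for Marco, and HFD + Inhib versus LFD 0.23 for Vsig4, 0.86 for Marco (adjusted p = 0.00826, from -0.07 with all libraries) and 0.25 for Adgre1. HFD + Inhib versus LFD under the GC and length correction, without and with the block, was -0.17 and -0.20 for Timd4, 0.071 and 0.12 for Marco, and -0.22 and -0.19 for Ccr2. Leaving out 1 library gave, in HFD versus LFD, -0.28 to 0.0069 for Timd4, -0.0021 to 0.28 for Cd5l and -0.11 to 0.22 for Adgre1. In HFD + Inhib versus HFD it gave -0.28 to 0.030 for Adgre1. In HFD + Inhib versus HFD + siRNA it gave -0.11 to 0.15 for Timd4, -0.041 to 0.45 for Marco, -0.16 to 0.094 for Ccr2 and -0.57 to 0.20 for Ly6c2. In HFD + siRNA versus LFD it gave -0.051 to 0.22 for Timd4, -0.43 to 0.40 for Marco, -0.058 to 0.40 for Ccr2 and -0.40 to 0.15 for Ly6c2. In HFD + Inhib versus LFD it gave -0.011 to 0.22 for Timd4, -0.18 to 0.10 for Vsig4, -0.27 to 0.57 for Marco, -0.28 to 0.12 for Adgre1, -0.062 to 0.079 for Cd68, -0.060 to 0.39 for Ccr2 and -0.71 to 0.074 for Ly6c2. Counts were lowest for Ly6c2, at 4 to 19.8 per library.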

Other observations

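Further members of the marker lists are given in the comparison in which their adjusted p from edgeR was lowest, as values without explanation. With the inhibitor against HFD, log2 fold changes were -2.31 for Ms4a1 (CD20, adjusted p = 0.0015), -1.55 for Trac (a T cell receptor chain, adjusted p = 0.00972) and -1.95 for Nkg7 (of cytotoxic lymphocytes, adjusted p = 0.0226). With the inhibitor against the siRNA, they were -0.60 for Colec11 (a collectin of stellate cells, adjusted p = 0.0009), -0.48 for Dnase1l3 (adjusted p = 0.0185), -0.80 for Icam2 (adjusted p = 0.00632), 1.17 for Gpm6a (adjusted p = 0.00242) and -0.95 for Alas2 (of heme synthesis, adjusted p = 0.00797). With the siRNA against LFD, they were -0.37 for Smad4 (adjusted p = 0.00127), 0.76 for Il18 (adjusted p = 0.00535) and 0.66 for Selp (adjusted p = 0.0384), and with the siRNA against HFD -1.73 for Ighm (adjusted p = 0.0168). With the inhibitor against LFD, they were -0.83 for Nlrp3 (adjusted p = 0.01), -0.60 for Csf3r (the G-CSF receptor, adjusted p = 0.0201), -1.14 for Cd79a (adjusted p = 0.00985), -0.58 for Pdgfrb (adjusted p = 0.00156), 1.55 for Cftr (adjusted p = 0.0193), -0.79 for Serpina1a (adjusted p = 4.16e-05), 5.58 for Cidec (of lipid droplets, adjusted p = 1.04e-07) and 5.96 for Cfd (adjusted p = 9.65e-06). Spp1 was higher in HFD than in LFD (0.62, adjusted p = 0.0313). The lymphocyte genes compared with HFD were low. Normalized CPM in HFD and with the inhibitor was 0.379 to 0.925 and 0.0600 to 0.212 for Ms4a1, and 0.417 to 0.899 and 0.177 to 0.291 for Trac. For Nkg7 it was 0.190 to 1.44 and 0.0971 to 0.283, which overlapped.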
